A study of Mus musculus with 38 samples.

Results

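CTCF peaks located in SINE B2 repeats were examined in mouse lymphoid progenitors before and after Notch stimulation. Members were those peaks of the LP and Phase 1 CTCF lists whose detailed annotation named a repeat of class SINE and family B2. This rule took 11452 of the 45388 LP CTCF peaks (25.2%, 95% Wilson interval 24.8 to 25.6%) and 11363 of the 44793 Phase 1 CTCF peaks (25.4%, 24.97 to 25.8%). Together these 22815 of the 359759 peaks held by all lists made 12707 separate sites. Of the remaining CTCF peaks, 30795 in LP and 30326 in Phase 1 lay outside repeats, and 3141 and 3104 lay in other repeats.

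Chromatin immunoprecipitation sequencing (ChIP-seq) had been done on Cas9-LP cells, a line of fetal liver progenitors from Ebf1-deficient Rosa26-Cas9 knock-in mice. The Ebf1 deficiency, which blocks the B lineage, and the Cas9 transgene were carried by all groups. LP cells grew on OP9 stroma without Notch ligand. Phase 1 cells were the same line after 2 days of Notch stimulation on OP9-DLL4, a stroma that presents the Notch ligand DLL4. Both were grown with SCF, Flt3L and IL-7, and an anti-CTCF antibody was used on 2 replicates of each. The series held 38 samples in 19 groups of 2, of which 17 groups had a peak list and 4 samples were inputs. Some lists used below came from LP or Phase 1 cells that carried control guides (sgCont) or guides against Ctcf, Cbfb or Med12. Another came from Phase 2 cells, a later stage after T-lineage commitment. Each list merged its 2 replicates by reproducibility, so the intervals and tests below count peaks and carry no error between cultures. The number of reads behind each list was not used here. A line is not a population of primary progenitors.

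CTCF is a zinc-finger protein that blocks the passage of cohesin along DNA, and pairs of CTCF sites anchor chromatin loops and insulate neighbouring genes. SINE B2 elements are short rodent repeats derived from a transfer RNA gene and copied through RNA by the machinery of LINE elements. Many B2 copies carry a match to the CTCF binding sequence, so that the spread of B2 brought CTCF sites to new places in rodent genomes. RUNX1 is a transcription factor of blood progenitors, Med12 is a subunit of the Mediator coactivator, and p300 is a histone acetyltransferase found at active enhancers.

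The members fell into 5 subfamilies. In LP, B3 gave 4745 peaks, B2_Mm2 gave 3108, B3A gave 2228, B2_Mm1t gave 882 and B2_Mm1a gave 489. In Phase 1 the corresponding numbers were 4555, 3238, 2113, 935 and 522. The CTCF core was searched as the 12-letter pattern CCANNAGNNGGC on both strands, in which N is any base. The most frequent base at each position around the match nearest to the peak centre, read from mm10 (GRCm38), is shown for each subfamily of LP members to let the copies be compared. Each line runs 5′ to 3′ over 52 bases, with the 12-base core in capitals.
B3: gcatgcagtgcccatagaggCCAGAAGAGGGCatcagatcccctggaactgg
B3A: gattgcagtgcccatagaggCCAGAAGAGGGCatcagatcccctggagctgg
B2_Mm2: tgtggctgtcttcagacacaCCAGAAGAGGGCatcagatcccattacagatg
B2_Mm1t: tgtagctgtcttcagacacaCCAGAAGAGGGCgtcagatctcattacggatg
B2_Mm1a: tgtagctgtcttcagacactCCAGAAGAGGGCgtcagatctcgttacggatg

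The lines cover only members with an exact match, so the 8 fixed letters of the core were set by the search. The letters that the search left free were also the same in all 5 subfamilies, while the bases around the core differed. B3A differed from B3 at 3 positions, counted from 1 at the left end, as C2A, A3T and A48G with the B3 base first. B2_Mm1t differed from B2_Mm2 at 4 positions as G4A, A33G, C41T and A48G, and the substitution A33G fell on the first base after the core. B3 differed from B2_Mm2 at 19 positions, none of them in the core, where only the letters written N could differ. The copies under the peaks were more alike in some subfamilies than in others. Outside the core, the median share of copies with the leading base was 96.3% over 408 B2_Mm1a peaks, 88.7% over 822 B2_Mm1t peaks, 79.0% over 2895 B2_Mm2 peaks, 64.9% over 3316 B3 peaks and 61.6% over 1608 B3A peaks. Outside repeats the same median was 33.1% over 9825 peaks.

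The core pattern was present within 100 bp of the centre of 9049 LP members. That is 79.0% (78.3 to 79.8%) of the members, against 31.9% (31.4 to 32.4%) of the LP CTCF peaks outside repeats. The odds ratio was 8.03 (two-sided Fisher's exact test over peaks, adjusted p returned as 0). Over all CTCF peaks 43.4% held the pattern in LP and 43.7% in Phase 1. In Phase 1 it was present in 78.8% of members and 32.5% of peaks outside repeats (odds ratio 7.72). Windows of the same 200 bp length placed 2 kb to each side of LP members held it in 2.29% of cases, and 1.01% of all 13237255 such windows of the named chromosomes did. With 1 mismatch allowed among the 8 fixed letters, 97.5% of LP members and 76.0% of LP peaks outside repeats had a match.

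**Figure D1:**
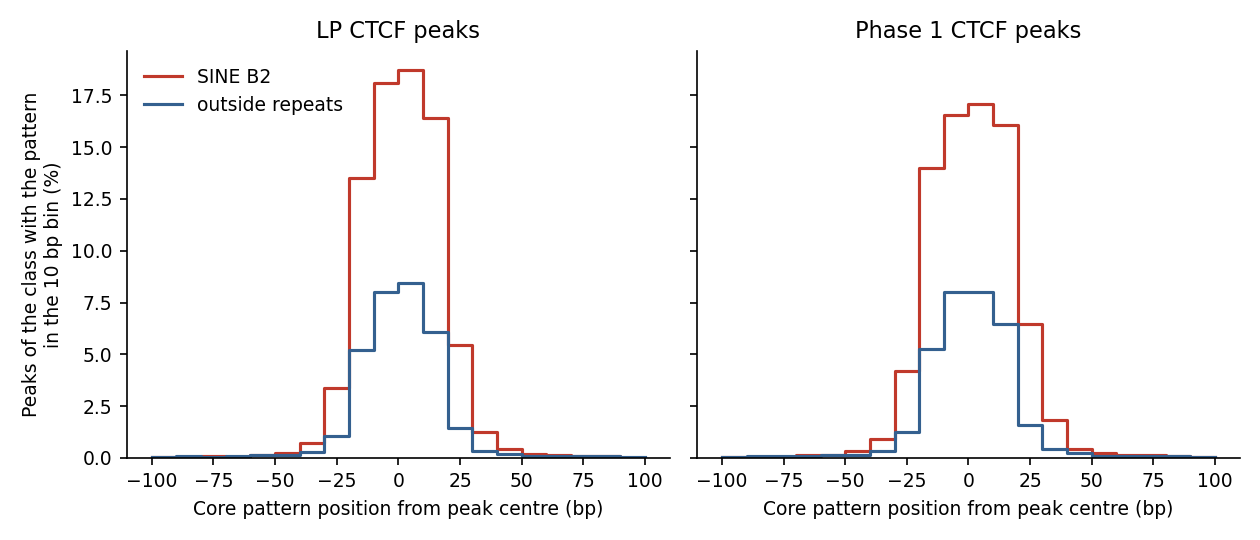
Position of the core pattern nearest to the peak centre, in bins of 10 bp (x axis, bp from the centre), as the percent of peaks of the class (y axis), for SINE B2 members (red) and CTCF peaks outside repeats (blue) in LP (left) and Phase 1 (right). Both classes are centred on the peak, and the red line is higher in the central bins, with 79.0% of LP members and 31.9% of LP peaks outside repeats holding the pattern.

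The pattern sat close to the centre in both classes. Among LP members with the pattern the median distance was 11 bp and 85.8% lay within 20 bp, while outside repeats these values were 10 bp and 87.6%. More than 1 match was found in 122 of the 9049 LP members. The subfamilies differed in how often the pattern was kept. By Fisher's exact test adjusted over 34 tests, it was present in 93.1% of B2_Mm2 members (odds ratio 4.84 against the other members, adjusted p = 1.15e-133) and 93.2% of B2_Mm1t members (3.90, 6.37e-33). Shares were lower in B3A, at 72.2% (0.621, 1.15e-17), and in B3, at 69.9% (0.394, 3.42e-89). B2_Mm1a stood at 83.4% (1.35, 0.0165). 

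A single 12-letter word made up most matches in members. The word CCAGAAGAGGGC, the core shown above, occurred in 6834 LP members (59.7%) but in 555 LP peaks outside repeats (1.80%). It was found in 84.7% of B2_Mm1t members, 80.6% of B2_Mm1a, 79.0% of B2_Mm2, 47.9% of B3 and 43.4% of B3A. Outside repeats other words led. CCAGCAGAGGGC was found in 713 LP peaks outside repeats (2.32%) and 343 members (3.00%), so its share was no lower in members. CCACCAGGGGGC was found in 636 (2.07%) and 3 (0.0262%), and CCAGCAGGGGGC in 636 (2.07%) and 40 (0.349%). Members and peaks outside repeats thus differed in their most frequent spelling of the core, and some spellings were found in both.

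The member word was common in the genome and mostly unoccupied. It occurred at 50566 places, 35.3% of the 143057 places that matched the pattern, and 15.4% (15.1 to 15.7%) of these places lay in an LP CTCF peak and 15.6% in a Phase 1 CTCF peak. Over all pattern places the LP share was 14.5%. For CCAGCAGAGGGC 55.1% of 1997 places lay in an LP CTCF peak, for CCAGCAGGGGGC 72.0% of 1003, and for CCACCAGGGGGC 83.9% of 808. These shares are descriptions, and places in repeated sequence, where few reads can be assigned, were counted among the unoccupied ones.

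Occupancy of the member word varied with the 2 bases that follow it. These bases were picked after the compositions of bound and unbound places had been seen, so no test was made. The 6 spellings with over 700 places are shown from the most to the least occupied in LP, with the 2 bases in capitals.
GC ending: ccagaagagggcGC
AG ending: ccagaagagggcAG
AC ending: ccagaagagggcAC
GT ending: ccagaagagggcGT
AT ending: ccagaagagggcAT
TT ending: ccagaagagggcTT

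The spelling that ends in AT, which the B3, B3A and B2_Mm2 lines above carry, occurred at 33670 places and 9.79% (9.48 to 10.1%) of them lay in an LP CTCF peak. With GT, carried by the B2_Mm1t and B2_Mm1a lines, 15.7% of 8116 places did. With AC 37.3% of 3726 places did, with AG 46.2% of 808, and with GC 66.5% (64.1 to 68.8%) of 1542. With TT 4.10% of 732 places did. Phase 1 gave 10.2%, 15.6%, 37.3%, 45.7%, 64.5% and 4.64% in the same order. The order was kept where all 8 sampled 50-base words around a place occurred once in the genome, so that reads could be placed. There the LP shares were 16.3% of 11999 places for AT, 28.8% of 2006 for GT, 42.2% of 2383 for AC, 49.2% of 600 for AG, 67.8% of 798 for GC and 6.15% of 439 for TT. Spellings that end in GC were 3.05% of all places of the word but 13.2% of those in LP member peaks. Subfamily and divergence from the leading bases also change with these 2 bases, and their part was not tested.

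By the deposited annotation every member was intronic or intergenic, because it assigns promoters and exons before repeats. In LP 6523 members (57.0%) were intronic and 4929 (43.0%) intergenic. Outside repeats 12.6% of LP CTCF peaks were promoter peaks, so 23864 intronic and intergenic peaks served as a second reference. The median distance from a member to the nearest transcription start was 16.8 kb (quartiles 7.01 and 38.3 kb), against 22.3 kb (8.44 and 54.6 kb) for these, and no test was made. A further CTCF peak lay within 10 kb of 53.7% of LP members and of 48.5% of the intronic and intergenic peaks outside repeats. Across the 19 autosomes the B2 share of LP CTCF peaks ranged from 19.7 to 31.3%, and in Phase 1 from 20.4 to 30.7%, and chromosome 5 was highest in both.

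SINE B2 peaks were frequent for CTCF and rare for every other factor. In LP 370 of 31995 RUNX1 peaks (1.16%), 338 of 30020 Med12 peaks (1.13%) and 493 of 36182 p300 peaks (1.36%) were in B2. In Phase 1 the shares were 0.888% of 38399 RUNX1 peaks, 0.838% of 39132 Med12 peaks and 1.16% of 49116 p300 peaks. Odds ratios of CTCF against these lists ran from 24.4 for LP p300 to 40.2 for Phase 1 Med12, and all 6 adjusted p-values were returned as 0. With intronic and intergenic peaks only, the odds ratios ran from 20.8 to 36.1. Notch1-IC, the intracellular domain of Notch1 that enters the nucleus after ligand binding, had 6 B2 peaks of 1585 in LP, 0 of 152 in Phase 1 (up to 2.46% by the Wilson bound) and 7 of 352 in Phase 2.

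**Figure D2:**
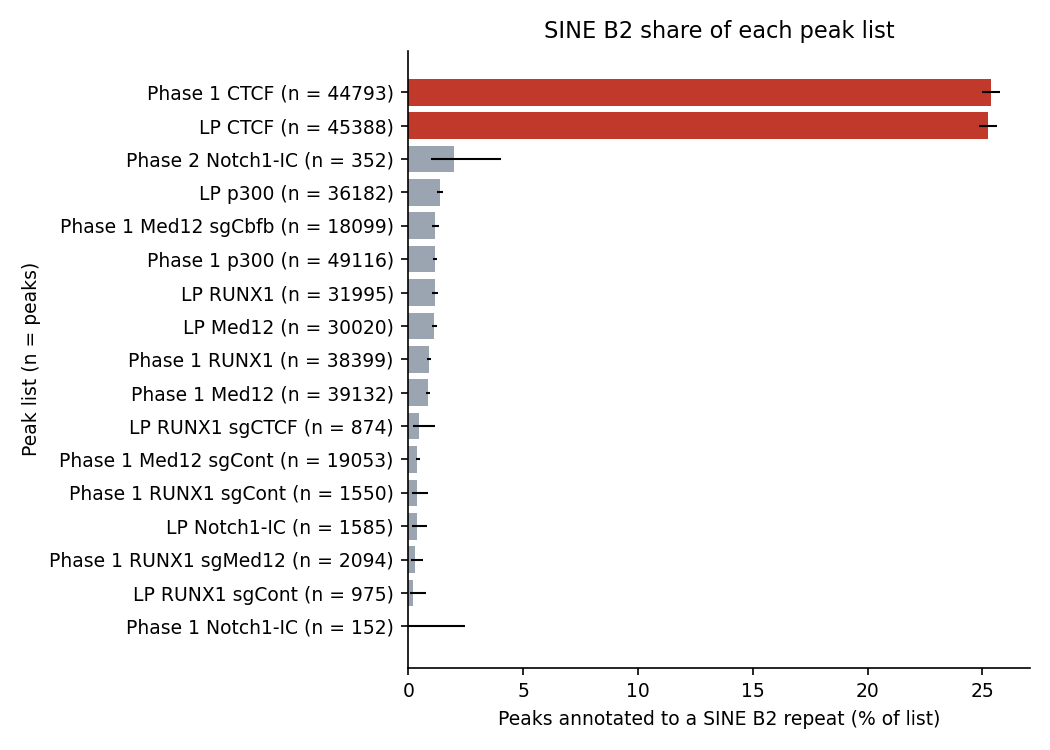
Percent of peaks annotated to a SINE B2 repeat (x axis) in each of the 17 peak lists (y axis, with the number of peaks), bars with 95% Wilson intervals. The 2 CTCF lists, in red, stand at 25.2 and 25.4%, and no other list is above 1.99%.

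The B2 peaks of the other factors overlapped CTCF peaks more often than their lists did, and to a different degree in the stages. In LP 235 of the 370 RUNX1 peaks in B2 (63.5%, 58.5 to 68.3%) overlapped an LP CTCF peak, against 23.2% of all LP RUNX1 peaks. In Phase 1 114 of 341 (33.4%, 28.6 to 38.6%) overlapped a Phase 1 CTCF peak, against 15.6% of all. For Med12 the shares were 57.7% in LP and 29.3% in Phase 1, against 23.6% and 14.8% of all Med12 peaks. For p300 they were 57.2% and 37.9%, against 23.2% and 15.5%. The whole lists were thus lower in Phase 1 too. The intervals of the stages did not overlap for any of the 3 factors, but the lists differ in length and the difference was not tested.

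Members had low scores. The score, whose scale was not stated, served only for ranking within a list. In LP the members had a median score of 37.2 (quartiles 23 and 70.1) and the peaks outside repeats one of 90 (39.8 and 165). In Phase 1 the medians were 37.7 and 95.05. The median member stood at percentile 31.4 of the LP list and 30.1 of the Phase 1 list, while the median peak outside repeats stood at 59.9 and 60.2. Only 625 LP members (5.46%, 5.06 to 5.89%) were in the top 20% of the list by score, against 26.4% of peaks outside repeats (Fisher's exact test, odds ratio 0.161, adjusted p returned as 0). In Phase 1 there were 613 (5.39%) against 26.5% (0.158, returned as 0). Peaks in other repeats lay between, and their medians were nearer to those of members. Their median score was 41.9 in LP and 43.4 in Phase 1, at percentiles 35.4 and 35.1. For the top 20% the odds ratios of members against them were 0.520 in LP and 0.539 in Phase 1. The focus ratio, HOMER's measure of how tightly the reads of a peak are placed around its centre, had nearly the same median in members (0.872) and outside repeats (0.876) in LP. By subfamily the LP median was 0.88 in B3 and B3A, 0.864 in B2_Mm2, 0.844 in B2_Mm1t and 0.838 in B2_Mm1a.

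Among the LP members, B3 gave 357 of the 625 in the top 20%. This was 7.52% of B3 (Fisher's exact test, odds ratio 1.95 against the other members, adjusted p = 9.45e-16). The shares were 5.75% of B3A members (1.07, 0.515) and 4.34% of B2_Mm2 members (0.728, 0.00145), and B2_Mm2 no longer passed Fisher's exact test with scores of at least 30 (0.861, adjusted p = 0.270). B2_Mm1t had 3 such peaks of 882 (0.340%, odds ratio 0.0546, 2.93e-18) and B2_Mm1a 2 of 489 (0.409%, 0.0682, 8.42e-10). Median scores followed the same order, with 44.1 in B3, 39.95 in B3A, 32.95 in B2_Mm2, 28.6 in B2_Mm1a and 25.8 in B2_Mm1t. Sequence recurrence, which limits where short reads can be placed, also differed. The median share of 50-base words around the peak that occur once in the genome was 100% in B3 and B3A, 94.4% in B2_Mm2, 80.6% in B2_Mm1t and 63.9% in B2_Mm1a. The part of this in the scores was not tested across subfamilies. With peaks of mostly unique sequence only, the odds ratio of members against peaks outside repeats was 0.185 in both stages.

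**Figure D3:**
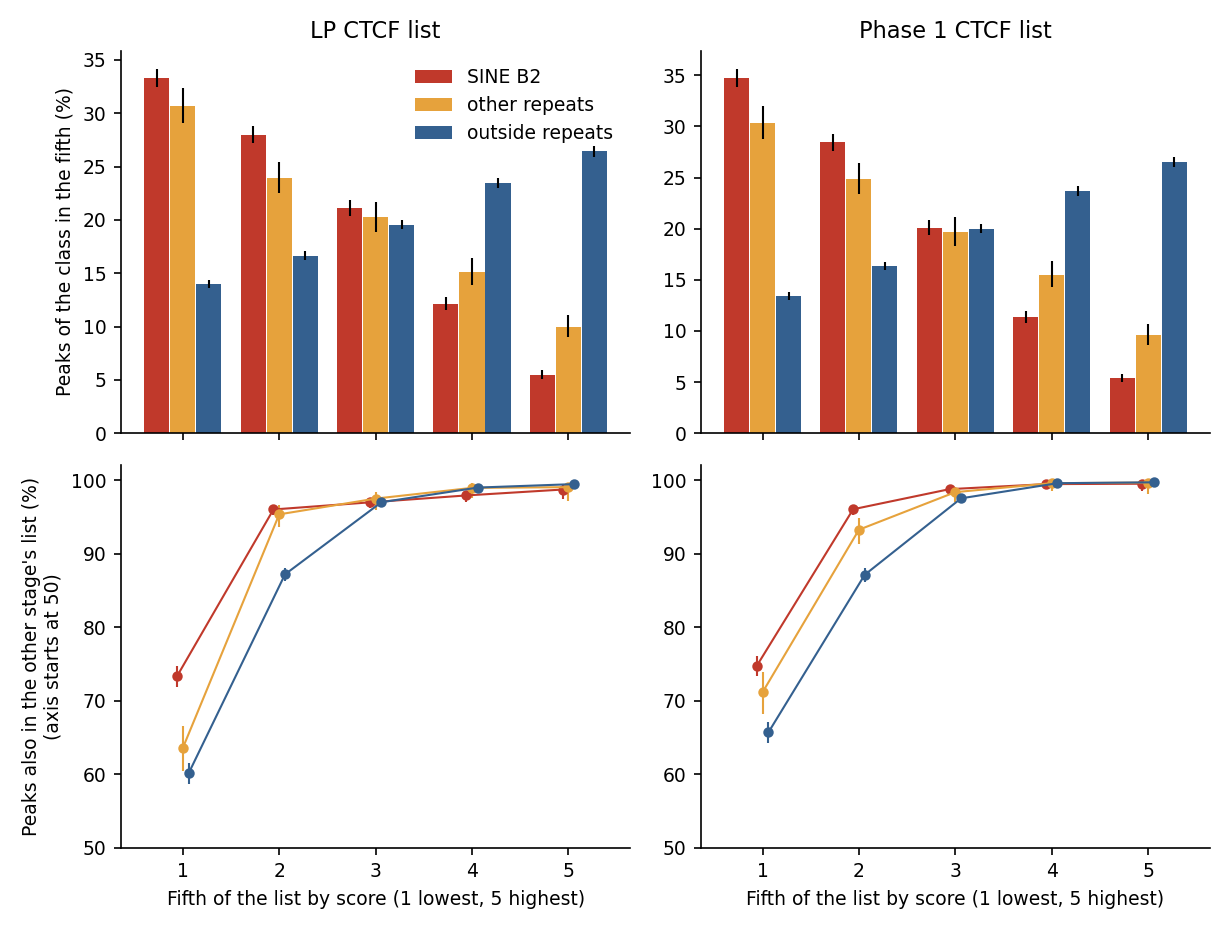
Top, percent of the peaks of each class (y axis) that fall in each of 5 equal classes of the CTCF list by score (x axis, 1 lowest to 5 highest). Bottom, percent of the peaks of that class and score class that overlap a CTCF peak of the other stage, on an axis that starts at 50. Bars and lines show SINE B2 members (red), peaks in other repeats (orange) and peaks outside repeats (blue), with 95% Wilson intervals. Members decline from 33.3 to 5.46% over the score classes in LP, and their sharing there is above that of peaks outside repeats in the lowest 2 score classes of LP.

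Most members were occupied in both stages. Of the LP members 10198 (89.0%, 88.5 to 89.6%) overlapped a Phase 1 CTCF peak, against 91.3% (91.0 to 91.6%) of LP peaks outside repeats (Fisher's exact test, odds ratio 0.772, adjusted p = 2.07e-12). Over all LP CTCF peaks the share was 90.5%. Of the Phase 1 members 89.8% overlapped an LP CTCF peak, against 92.6% outside repeats (0.699, 2.82e-20), with 91.7% over all Phase 1 CTCF peaks. This direction turned once peaks of like score were compared. With Fisher's exact test replaced by the Mantel-Haenszel test over 5 equal classes of score, the odds ratio was 1.89 in LP (adjusted p = 1.36e-58) and 1.87 in Phase 1 (2.66e-50). In the lowest score class 73.3% of LP members were shared against 60.1% of peaks outside repeats, and in the next class 96.0% against 87.2%. In the highest class the shares were 98.7% and 99.5%. In LP the turn came from the low classes. In the class next to the highest, LP members stood below the peaks outside repeats, at 97.9% (97.02 to 98.5%) against 99.0% (98.7 to 99.2%). In Phase 1 members stood above them in the middle class too, at 98.8% (98.2 to 99.1%) against 97.5% (97.1 to 97.9%). With scores of at least 30 in both lists the odds ratios of Fisher's exact test kept the first direction, at 0.566 in LP (adjusted p = 5.32e-29) and 0.604 in Phase 1 (4.23e-26). The LP shares were then 90.5% of members and 94.4% outside repeats. In this setting a partner with a score under 30 did not count, and peaks were not matched on score. It therefore cannot decide how peaks of the same score class compare.

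Where a member was found in both stages, its rank was kept. Over the 10198 shared LP members, Spearman's rho between the percentile in LP and that of the overlapping Phase 1 peak was 0.941, and the median difference was 4.34 percentile points. The points share the same genomic sequence and cell line, so this is a description. Over 28126 shared peaks outside repeats rho was 0.969. The Phase 1 partner was itself a member for 10108 of the 10198.

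The members found in 1 stage had scores near the lowest of the lists. There were 1254 LP-specific members with a median score of 18.4 and 1163 Phase 1-specific members with a median of 19.6, where the lowest scores in the lists were 15 and 16.1. Their subfamilies leaned to different stages. LP-specific peaks were 433 of the 678 stage-specific B3 peaks (63.9%, 60.2 to 67.4%) and 243 of the 382 B3A peaks (63.6%, 58.7 to 68.3%). By contrast they were 360 of 836 B2_Mm2 peaks (43.1%, 39.7 to 46.4%), 147 of 347 B2_Mm1t peaks (42.4%, 37.3 to 47.6%) and 71 of 174 B2_Mm1a peaks (40.8%, 33.8 to 48.2%). Outside repeats the share was 54.4% (53.0 to 55.8%) of 4907. B3 and B3A thus lay above and B2_Mm2, B2_Mm1t and B2_Mm1a below the peaks outside repeats by more than the counting error.

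This split was described and not tested, since the lists pool their replicates. For B3, B3A and B2_Mm2 it was also seen with peaks of mostly unique sequence, where the LP-specific share was 64.7% (60.9 to 68.3%) of B3, 64.9% of B3A and 40.9% (36.3 to 45.8%) of B2_Mm2. For B2_Mm1t it was 45.2% (34.3 to 56.6%), and this interval overlapped that of all peaks outside repeats. B2_Mm1a kept 8 such peaks, too few to read. In LP the subfamilies also differed in the share found in Phase 1. By Fisher's exact test it was 90.9% for B3 (odds ratio 1.39 against the other members, adjusted p = 1.53e-07), 83.3% for B2_Mm1t (0.585, 1.10e-07) and 85.5% for B2_Mm1a (0.712, 0.0138), and none of the 3 passed the test within score classes (1.02, 0.911 and 0.963, adjusted p = 0.835, 0.437 and 0.835). B2_Mm2 stood at 88.4% (0.916, 0.201) and B3A at 89.1% (1.01, 0.970). With scores of at least 30, B3A turned to an odds ratio of 0.748 (Fisher's exact test, adjusted p = 0.00352). These tests were made in LP only. In Phase 1 the share found in LP was 94.6% for B3, 93.4% for B3A, 85.3% for B2_Mm2, 80.3% for B2_Mm1a and 78.6% for B2_Mm1t. In the lowest Phase 1 score class it was 83.6% (81.5 to 85.6%) for B3 and 83.7% for B3A. There it was 67.9% (65.3 to 70.4%) for B2_Mm2, 63.0% for B2_Mm1a and 62.1% (57.6 to 66.3%) for B2_Mm1t. The Phase 1 differences were not tested.

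**Figure D4:**
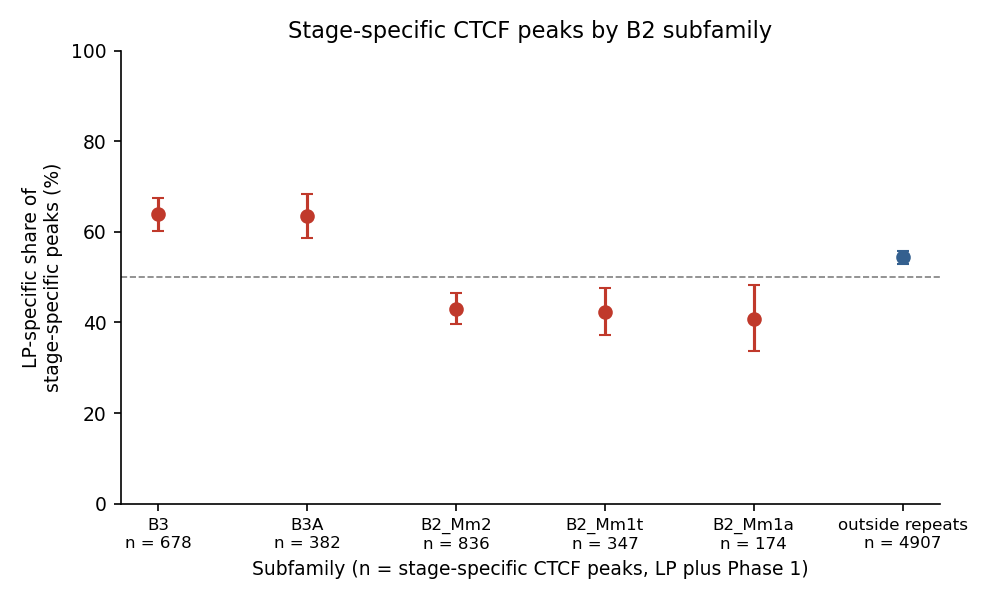
Share of stage-specific CTCF peaks that are LP-specific (y axis, %), by B2 subfamily and for peaks outside repeats (x axis, n of stage-specific peaks of both lists together), with 95% Wilson intervals and a dashed line at 50%. B3 and B3A stand at 63.9 and 63.6%, and B2_Mm2, B2_Mm1t and B2_Mm1a at 43.1, 42.4 and 40.8%.

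Other factors were scarce at the members. In LP 382 members overlapped a RUNX1 peak (3.34%, 3.02 to 3.68%), 348 a Med12 peak (3.04%, 2.74 to 3.37%) and 435 a p300 peak (3.80%, 3.46 to 4.16%). Outside repeats the shares were 21.7%, 20.7% and 24.4%, and over all LP CTCF peaks 16.4%, 15.6% and 18.5%. The odds ratios were 0.125 for RUNX1, 0.120 for Med12 and 0.122 for p300, with adjusted p-values returned as 0. In Phase 1 331 members had a RUNX1 peak (2.91%), 301 a Med12 peak (2.65%) and 488 a p300 peak (4.29%). Outside repeats these were 17.6%, 17.0% and 22.0%, and over all Phase 1 CTCF peaks 13.4%, 12.9% and 17.0%. The odds ratios were 0.140, 0.133 and 0.159. No peak of the 3 factors overlapped 10880 LP members (95.01%) and 10813 Phase 1 members (95.2%), and all 3 overlapped 242 members in each stage (2.11 and 2.13%). Outside repeats all 3 overlapped 17.8% in LP and 14.8% in Phase 1.

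The scarcity held against intronic and intergenic peaks outside repeats within 5 equal classes of score. There the odds ratios were 0.297 for RUNX1, 0.275 for Med12 and 0.282 for p300 in LP, and 0.260, 0.236 and 0.309 in Phase 1. Against CTCF peaks in other repeats they ran from 0.226 for Phase 1 Med12 to 0.268 for Phase 1 p300. RUNX1 peaks were found at 2.65% of B3A, 3.31% of B2_Mm2, 3.52% of B3, 3.74% of B2_Mm1t and 4.09% of B2_Mm1a members in LP, and the intervals of all 5 overlapped. In Phase 1 those of B3 and B2_Mm1t did not. RUNX1 was found there at 2.35% of B3 (1.95 to 2.83%) and 4.49% of B2_Mm1t members (3.34 to 6.02%), and Med12 at 2.22% (1.83 to 2.69%) and 4.06% (2.98 to 5.53%), and the difference was not tested.

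**Figure D5:**
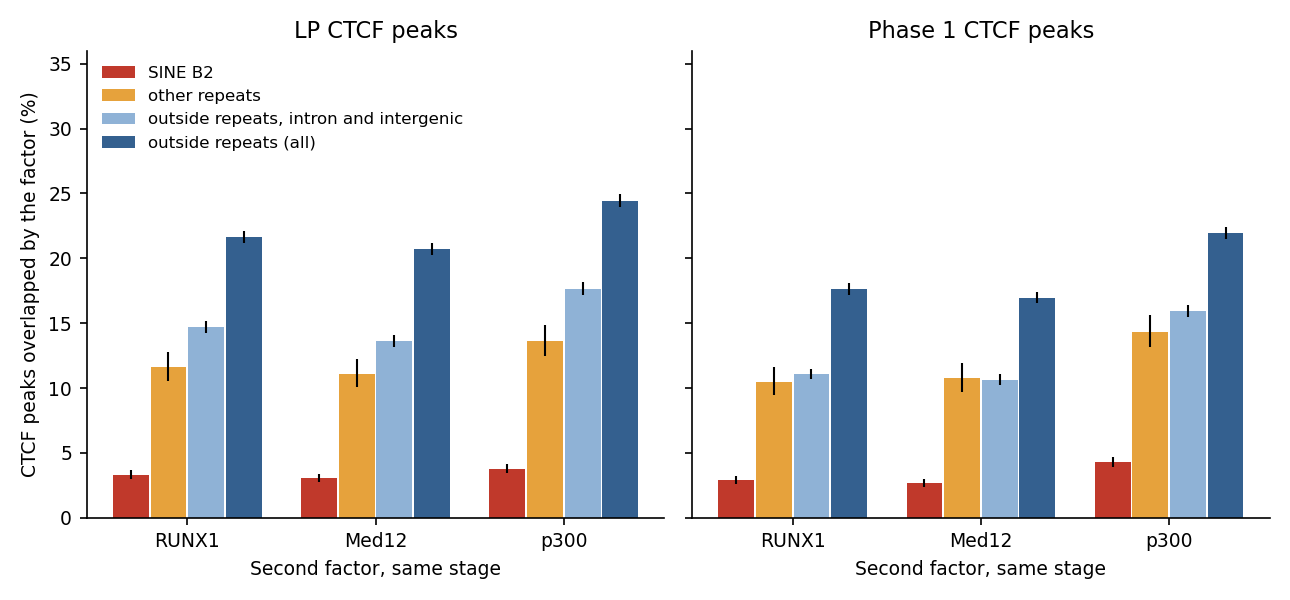
Percent of CTCF peaks (y axis) overlapped by a RUNX1, Med12 or p300 peak of the same stage (x axis) in LP (left) and Phase 1 (right), for SINE B2 members (red), peaks in other repeats (orange), intronic and intergenic peaks outside repeats (light blue) and all peaks outside repeats (dark blue), with 95% Wilson intervals. Members stand between 2.65 and 4.29%, below the other classes for each factor in both stages.

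The few members with RUNX1 were high-ranking CTCF sites in LP. The 382 had a median percentile of 75.9 and 171 of them (44.8%) were in the top 20%, whereas the 11070 without RUNX1 had a median of 30.7 and 4.10%. Outside repeats the LP medians were 70.8 with RUNX1 and 58.4 without, and 43.7% and 21.6% were in the top 20%. In Phase 1 the median percentile was 46.1 with RUNX1 and 29.8 without, and 69 of 331 (20.8%) were in the top 20%. The core pattern was kept in 73.6% (68.9 to 77.7%) of LP members with RUNX1 and in 79.2% of those without. Outside repeats it was found in 19.7% of the LP peaks with RUNX1 and 35.3% of those without.

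RUNX1 was more often seen in LP alone than in Phase 1 alone at members shared by the stages. Among the 248 shared members with RUNX1 in exactly 1 stage, 174 (70.2%) had it in LP, against 76.2% of such peaks outside repeats (Fisher's exact test, odds ratio 0.736, adjusted p = 0.0465). This difference from peaks outside repeats was lost in Fisher's exact test with scores of at least 30 (0.629, adjusted p = 0.0595), with overlap of 50% of the shorter peak (0.916, 0.651), and within score classes, where it turned (1.04, 0.835). The LP share of members itself was 49 of 83 (59.0%, 48.3 to 69.0%) with scores of at least 30, an interval that includes 50%. With overlap of 50% of the shorter peak it was 76.9% (70.8 to 82.0%).

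The RUNX binding string was written into part of the repeat. TGTGGTT, the string preferred by RUNX proteins, searched on both strands within 100 bp of the centre, occurred in 29.9% of LP members, in 5.53% of LP peaks outside repeats and in 11.7% of all LP CTCF peaks. Windows 2 kb away from members held it in 6.03% of cases. It was found in 90.6% of B2_Mm1a, 80.3% of B2_Mm1t and 62.2% of B2_Mm2 members, but in 4.59% of B3 and 5.48% of B3A members. The string stood at a fixed place, 34 bases after the core on the same strand, in 346 of 369 B2_Mm1a, 555 of 660 B2_Mm1t and 1407 of 1810 B2_Mm2 members that held both. The most frequent bases of the 2895 B2_Mm2 members with the pattern are shown over 82 bases for this reason, with the CTCF core and the RUNX string in capitals.
B2_Mm2 with RUNX string: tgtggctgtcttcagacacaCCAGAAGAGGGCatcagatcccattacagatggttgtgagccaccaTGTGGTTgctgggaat

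The share with a RUNX1 peak was alike in B2_Mm members with and without the string, within counting error. In LP 3.53% (2.94 to 4.25%) of the 3084 B2_Mm members with the string overlapped a RUNX1 peak and 3.37% (2.54 to 4.45%) of the 1395 without it. In Phase 1 the shares were 3.66% (3.06 to 4.36%) and 3.40% (2.58 to 4.47%). In B3 and B3A, where the string is not a fixed part of the copies, RUNX1 was found at 6.76% (4.55 to 9.95%) of 340 members with the string and 3.06% (2.67 to 3.50%) of 6633 without it in LP, and at 5.79% and 2.27% in Phase 1. These are descriptions with no test.

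The highest-scored members were B3 and B3A copies, and the same 3 sites led in both stages. A B3A copy in an intron of Trpm8, the gene of a cold-sensing ion channel, had a score of 649.8 in LP (rank 13 of the list) and 677.6 in Phase 1 (rank 53). A B3 copy 35.99 kb upstream of the start of Slc25a25, which encodes a mitochondrial carrier, had 584.6 (rank 30) and 778.0 (rank 33) and was overlapped by RUNX1, Med12 and p300 in both stages. A B3 copy in an intron of Nemp1, a nuclear envelope protein gene, had 499.6 (rank 80) and 786.0 (rank 30). Neither B3 copy held the exact pattern. The Trpm8 and Nemp1 copies were overlapped by none of the 3 factors in either stage.

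The leading LP members of B3A, B2_Mm2 and B2_Mm1t that held the pattern are shown to compare strongly occupied copies with the lines above. They lie in mm10 at chr1:88287743-88287794 on the minus strand, chr11:78453829-78453880 on the plus strand and chr5:121377151-121377202 on the minus strand, and the core is in capitals.
B3A in Trpm8: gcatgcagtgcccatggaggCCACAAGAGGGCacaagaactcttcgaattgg
B2_Mm2 upstream of Slc46a1: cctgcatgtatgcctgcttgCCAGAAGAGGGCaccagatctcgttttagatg
B2_Mm1t in Trafd1: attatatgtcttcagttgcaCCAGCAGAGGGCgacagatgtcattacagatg

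The B2_Mm2 copy lay 11.8 kb upstream of Slc46a1, a folate transporter gene, and had an LP score of 453.9 with a p300 peak. Its core was the member word followed by AC. The B2_Mm1t copy lay in an intron of Trafd1, with a score of 194.5. The B3A and B2_Mm1t cores were CCACAAGAGGGC and CCAGCAGAGGGC, words found in 2.34% and 3.00% of LP members. Subfamily names are those of the annotation, and at C2A, A3T and A48G this B3A copy carried the B3 base. The leading B2_Mm1a peak, with a score of 164.5 and all 3 factors, lay 6.29 kb upstream of Prss16, a thymus protease gene, and held no exact pattern. The highest LP-specific member was a B3 copy 12.6 kb downstream of the start of Nrsn2, with a score of 257.0 (rank 1960), and the highest Phase 1-specific member a B3 copy in an intron of Camta1, with 326.6 (rank 1349). Neither was overlapped by the 3 factors.

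Members were also counted near 38 T-lineage, Notch and progenitor genes, within 50 kb of the gene or inside it. In LP 27 of the 38 genes had a member and 55 separate members were counted, of which 49 were shared with Phase 1 and 4 overlapped RUNX1. In Phase 1 25 genes had a member, with 56 members, of which 50 were shared and 2 overlapped RUNX1. Counted once per gene, 58 of 263 CTCF peaks in these windows were members in LP (22.1%, 17.5 to 27.4%) and 58 of 269 in Phase 1 (21.6%, 17.1 to 26.9%), no more than the 25.2 and 25.4% of the whole lists. Flt3, the receptor of a progenitor growth factor, had the most, with 8 members among 13 CTCF peaks in LP and 7 among 12 in Phase 1. Notch3, a Notch receptor gene, had 5 of 12 in both stages, and Spi1, which encodes the transcription factor PU.1, had 5 of 13 and 5 of 12. Notch1, Hes1, Kit, Myb, Il7r, Ctcf, Bcl11a, Mef2c, Hoxa9 and Gfi1 had none in either stage. The window of Hes1 does not reach the distal CTCF sites that the paper describes downstream of this gene. A B2_Mm1t member in the Spi1 window, with scores of 22.2 and 31.0, overlapped an exon of Madd in GENCODE. In each stage 6 members had no CTCF peak in the other. Those in LP alone lay in the windows of Spi1, with a score of 51.4, Flt3 (32.6), Zfpm1 (17.6) and Lef1 (16.8). The others were a member near Cbfb, which encodes the partner of RUNX proteins, and a member shared by the windows of Rag1 and Rag2, the recombinase genes. Both of these had a score of 18.1. Those in Phase 1 alone lay in the windows of Tcf7, Ptcra, Ikzf1, Spi1 and Lck. Of them, a B2_Mm2 copy 22.6 kb upstream of Tcf7, which encodes a T-lineage transcription factor, scored 49.4 and was overlapped by RUNX1, Med12 and p300.

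The 5 highest-scored of these sites were shared by the stages. A B3 copy near Cd3g, Cd3d and Cd3e, genes of the T cell receptor complex, lay 13.4 kb downstream of the start of Cd3g and 1.43 kb upstream of that of Ube4a, the nearest start, and scored 249.2 in LP and 287.4 in Phase 1. It was overlapped by RUNX1, Med12 and p300 in LP and by Med12 and p300 in Phase 1. A B3 copy in an intron of Flt3, 68.8 kb from its start, scored 259.7 and 285.8, with all 3 factors in LP and with RUNX1 and p300 in Phase 1. A B3 copy 17.0 kb upstream of Zap70, a kinase of T cell receptor signalling, and in an intron of 4933424G06Rik, scored 212.8 and 219.9, with all 3 factors in LP and p300 alone in Phase 1. A B3 copy 59.3 kb downstream of the start of Tcf3, which encodes the E proteins E12 and E47, scored 215.4 and 197.8, with p300 in LP and with Med12 and p300 in Phase 1. A B2_Mm2 copy 49.2 kb upstream of Spi1 scored 204.9 and 198.8 and had none of the 3 factors. CTCF was thus called in both stages at all 5, and the RUNX1 call at the Cd3g and Zap70 sites was in the LP list alone.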

How the data were processed

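ChIP-seq peak lists of 17 groups were used, each combining 2 replicates per the labels. The authors mapped reads to mm10 with Bowtie 1.1.1, suppressing reads with more than 10 places, called peaks with HOMER against a control and kept peaks reproducible between replicates with a score of at least 15. How HOMER counted reads with several places was not given in the sources used here, which bears on repeats. Labels and methods differ on read length and layout. The deposited lists held a peak score per peak, and the deposited CTCF lists a focus ratio, a fraction. Python 3.11.15, pandas 2.3.3, numpy 2.4.6 and scipy 1.17.1 were used. Overlap was 1 bp or more. Odds ratios were tested with Fisher's exact test, two-sided, adjusted by the Benjamini-Hochberg method over the 34 main tests at a threshold of 0.05. The tests of each other setting were adjusted among themselves. The code was tested on simulated data. A p below the smallest representable number is given as returned as 0. Wilson intervals (95%) cover counting error over peaks, and depth is unknown. Peaks were ranked within a list and split into 5 equal classes of score. Sequence, repeat recurrence (50-base words every 10 bases, mostly unique at 90% or more) and gene context came from GRCm38.p6 and GENCODE M21, and no CTCF peak ended past a chromosome. The 11 CTCF peaks of each list off the 21 named chromosomes, none a member, had no sequence read. Single peaks were named if they were among the 3 highest-scored members of a list, the highest stage-specific member, the highest LP member of each subfamily with at least 50 members, or within 50 kb of 38 listed genes, of which the 5 highest-scored were described, and genomic sequences were printed for the list and subfamily leaders only. Members and lists were chosen with earlier results of these data known.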

Additional observations from a re-analysis of the deposited data

Results flagged for a closer look

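The Med12 list of Phase 1 cells with guides against Cbfb held more SINE B2 peaks than the list with control guides. B2 peaks were 211 of 18099 (1.17%, 1.02 to 1.33%) with sgCbfb and 74 of 19053 (0.388%, 0.310 to 0.487%) with sgCont. It is given here because this list enters none of the tests above and its share exceeds that of its control. Of the 211 peaks, 191 (90.5%, 85.8 to 93.8%) overlapped a Phase 1 CTCF peak, against 37 of the 74 (50.0%, 38.9 to 61.1%). Over the whole lists 32.5% and 22.8% of the Med12 peaks did. Their median scores were low in both lists, at 20.7 and 21.1. Each list is 1 pool of 2 replicates, and a difference in depth or enrichment between the lists cannot be told apart from one between the guides.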

How the results depend on the processing

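No paired analysis was possible because each peak list combines both replicates, and for the same reason no replicate could be left out. Of 98 comparisons of members with other peaks under another setting, 86 kept their direction and side of the threshold, among them all on the B2 share, the top 20% of scores, co-occupancy and the core pattern. By odds ratios from Fisher's exact test or, within score classes, the Mantel-Haenszel test, sharing with the other stage turned in LP and Phase 1 within score classes (1.89, 1.87), within score classes of intronic and intergenic peaks (1.51, 1.67) and against other repeats (1.22, and 1.07 with adjusted p = 0.346), and in Phase 1 it was 0.975 (adjusted p = 0.602) with peaks of mostly unique sequence. RUNX1 in LP alone gave 0.629 with scores of at least 30, 0.916 with overlap of 50% of the shorter peak, 0.899 against other repeats, 0.844 with peaks of mostly unique sequence and 1.04 within score classes. Within the subfamilies in LP, sharing of B2_Mm2 turned to 1.12 with scores of at least 30 and 1.11 within score classes. Under these settings that of B3A turned to 0.748 and 0.910, and with overlap of 50% of the shorter peak to 0.9995. The top 20% ratio of B3A turned to 0.889 with scores of at least 30. The causes were not tested beyond what each setting leaves out. The settings on unique sequence, the joint one on location and score, and score classes for subfamilies were chosen after seeing the data. Peaks are not replicates, depth per list is unknown, and copies of B2 without a peak could be counted only through the core word.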
